A study of Mus musculus with 8 samples.

Results

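Cranial neural crest transcription factors were examined as 10 genes, *Sox10*, *Sox9*, *Foxd3*, *Tfap2b*, *Twist1*, *Ets1*, *Snai1*, *Dlx2*, *Dlx5* and *Dlx6*, picked by symbol from the 48526 genes of a count table. Each of the 10 symbols was found. No rule on measured values was used in the choice, but it was made with earlier results of these data known. The libraries are bulk RNA sequencing of the left and right heart field of 4 wild-type male C57bl6/J mouse embryos at stage E8.5f, L29-3, L43-5, L46-8 and L49-3, with 1 left and 1 right library per embryo and no mutant or treatment. The dissected tissue reached from the lower edge of the headfolds to the second somite, without the heart and the back, and was split along the midline. The screen asked which genes differ between left and right, and the same libraries are used here to ask which crest factors were measured in this tissue, at what level, and whether they differed between sides or among embryos.

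The neural crest arises at the border of the neural plate, leaves the dorsal neural tube by an epithelial to mesenchymal transition and migrates ventrally. Cranial crest cells fill the pharyngeal arches, where they form skeleton and connective tissue, and crest of the caudal hindbrain reaches the arterial pole of the heart and takes part in septation of the outflow tract. *Foxd3*, *Sox10* and *Tfap2b* mark crest cells most specifically among the 10. *Twist1*, *Snai1*, *Sox9* and *Ets1* act in crest too, but are also known from mesenchyme, mesoderm, neural progenitors or endothelium, and the *Dlx* genes pattern crest mesenchyme within the arches and are also expressed in ectoderm and forebrain.

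The deposited values were counts of reads per gene after removal of duplicates, with a total of 1147446 to 3520753 per library and a median of 1916167. Levels are given as DESeq2-normalized counts, that is, counts divided by a size factor of the library. The study set 5.6 normalized read counts as background from known markers. It does not state which normalization this level refers to, and here 5.6 is applied to DESeq2-normalized counts. For its filter before testing, the study took DESeq2-normalized counts under 20 as background. A count of 0 allows up to 3 reads in a library, and this limit covers counting error only. The test was run on genes that reached 20 normalized counts in 4 or more libraries, which kept 9744 of 48526 genes, or 20.1%. Embryo L49-3 stood apart in its marker genes, with a summed level of the juxta-cardiac field genes *Tbx5* and *Mab21l2* of 24.8 on the left and 23.3 on the right against 126 to 212 in the other 6 libraries, and results are also given without it where that changed a call or a direction.

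The 10 genes fell into 2 sets by level. *Twist1*, *Ets1*, *Sox9* and *Snai1* were at 20 normalized counts or more in all 8 libraries, and these 4 passed the filter and were tested. *Dlx5*, *Dlx2*, *Sox10*, *Tfap2b*, *Foxd3* and *Dlx6* reached 20 in 0 libraries and were not tested across genes. The mean over the 8 libraries exceeded 5.6 for 6 of the 10 genes, the 4 tested genes with *Dlx5* at 11.8 and *Dlx2* at 8.32, both of which lie under the limit of 20. The summed level of all 10 genes ranged from 414 to 630 per library, and the 4 tested genes supplied 90.1% to 95.6% of it.

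**Figure D1:**
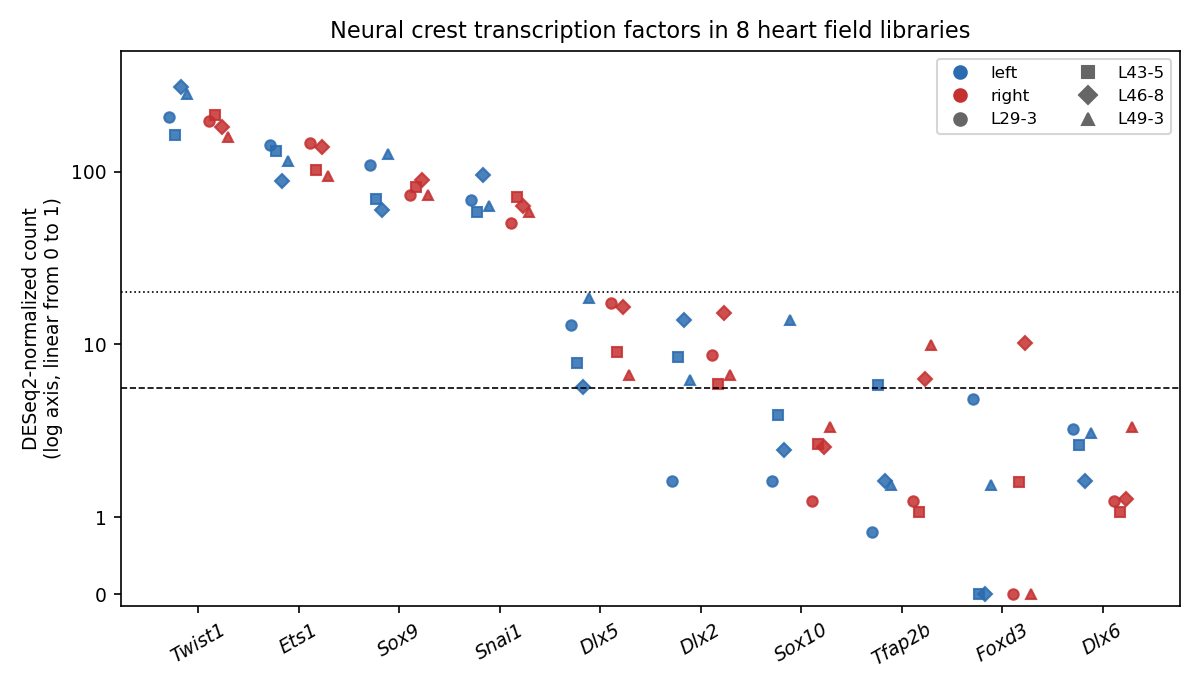
DESeq2-normalized counts of the 10 crest transcription factors in the 8 libraries (vertical log axis, linear from 0 to 1), with the left side in blue, the right side in red and a symbol shape for each embryo; the dashed line is the background of 5.6 and the dotted line the limit of 20. *Twist1*, *Ets1*, *Sox9* and *Snai1* lie above 20 in all 8 libraries and the other 6 genes below 20 in all 8.

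*Sox10* (ENSMUSG00000033006, GRCm38 chromosome 15, 79154908 to 79165240, minus strand) encodes an SRY-box factor that maintains crest progenitors and drives their glial and melanocyte fates. It had 30 reads over the 8 libraries, with an exact Poisson interval of 20.2 to 42.8 that covers counting error only. Embryo L29-3 had 1.62 normalized counts left and 1.24 right, L43-5 had 3.91 and 2.67, L46-8 had 2.44 and 2.54, and L49-3 had 13.9 and 3.32. The left library of L49-3, with 9 reads, was the only one of the 8 above 5.6, and the sides overlapped. The exact sign-flip permutation test over the 4 embryos gave a two-sided p of 0.25, where the smallest p that 4 pairs allow is 1 in 8.

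*Foxd3* (ENSMUSG00000067261, chromosome 4, 99656299 to 99658622, plus strand) encodes a forkhead repressor of premigratory and early migrating crest. It had 18 reads in all and 0 reads in 4 of the 8 libraries. Embryo L29-3 had 4.86 normalized counts left and 0 right, L43-5 had 0 and 1.60, L46-8 had 0 and 10.2, and L49-3 had 1.55 and 0. No embryo had reads on both sides, and the side with reads was the left in L29-3 and L49-3 and the right in the other two embryos. The 8 reads of the right library of L46-8 were the most in any library, and the sign-flip permutation test gave an exact p of 0.75. A stretch of 315 bases of *Foxd3* is 90.5% identical to *Foxd1*, which had 488 reads, and whether reads were assigned between these genes was not tested.

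*Tfap2b* (ENSMUSG00000025927, chromosome 1, 19208914 to 19238576, plus strand) encodes an AP-2 factor of crest and its derivatives. It had 27 reads, and its normalized counts were 0.811 and 1.24 on the left and right of L29-3, 5.87 and 1.07 of L43-5, 1.63 and 6.34 of L46-8, and 1.55 and 9.97 of L49-3. It exceeded 5.6 in 3 libraries, 1 left and 2 right, from 3 different embryos. The right side was higher in 3 embryos and the left in L43-5, with an exact sign-flip permutation p of 0.5.

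The 3 crest-defining genes together had 2 to 15 reads per library. Their summed level was 4.07 to 17.0 normalized counts on the left and 2.48 to 19.0 on the right, and the mean of each gene, 3.96, 3.56 and 2.27 for *Sox10*, *Tfap2b* and *Foxd3*, lay below 5.6. The 3 genes taken here as crest-defining thus did not exceed 5.6 in their means, although each did in single libraries. The 10 genes are therefore described as genes of the crest programme and not as a measure of crest cells. Other crest genes, listed below, lay on both sides of 5.6. The receptor genes *Erbb3*, *Ednrb* and *Ngfr* had means of 47.0, 18.4 and 13.9, each above 5.6 in all 8 libraries. The means of *Pax7*, *Sox8*, *Barx1*, *Dlx1* and *Dlx4* were below it, at 5.23, 2.45, 0.699, 1.68 and 0.732. The study itself used *Tfap2b* and *Rfx4* as markers of the back to check the dissection, in which the back was removed. *Rfx4* had a mean of 33.3 normalized counts, with 4.07 to 61.5 in single libraries. In bulk tissue, fewer cells of a type and less RNA per cell cannot be told apart. The defining genes were not absent, since 75 reads were counted and no library was without any.

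The other cell types that the dissected tissue could hold were read from marker lists in the same libraries. The summed level of 6 neural tube genes was 142 to 584 on the left and 302 to 781 on the right, with *Sox2*, a factor of neural progenitors, at a mean of 111. The sum of 6 paraxial and head mesoderm genes was 465 to 861 on the left and 656 to 874 on the right, led by *Meox1* at 235, and that of 8 endothelial genes was 683 to 925 and 507 to 889, led by the VEGF receptor gene *Kdr* at 291. These tissues are known to express members of the tested set, and all 20 of these markers had a mean over 5.6. Surface ectoderm (6 genes, led by *Cdh1* at 279) summed to 455 to 548 on the left and 411 to 585 on the right, and foregut endoderm (6 genes, led by *Pax9* at 82.3) to 239 to 336 and 226 to 314. In each of these lists 5 of 6 genes had a mean over 5.6, the exceptions being *Trp63* with 12 reads and *Nkx2-1* with 7. The surface ectoderm sum came mostly from *Cdh1* and *Epcam* (mean 158), whereas *Grhl2* was at 43.1, *Tfap2c* at 13.6 and *Grhl3* at 10.7. Whether this sum came from surface ectoderm alone was not tested. Second heart field genes (6, led by *Mef2c* at 250) summed to 526 to 787 on the left and 667 to 753 on the right. Cardiomyocyte genes (4, led by *Myh6* at 785) ranged from 344 in the left library of L49-3 to 2918 in the left library of L29-3. No listed marker was at 0 reads in all libraries, and the part of each tissue in the levels of the tested members was not tested.

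**Figure D2:**
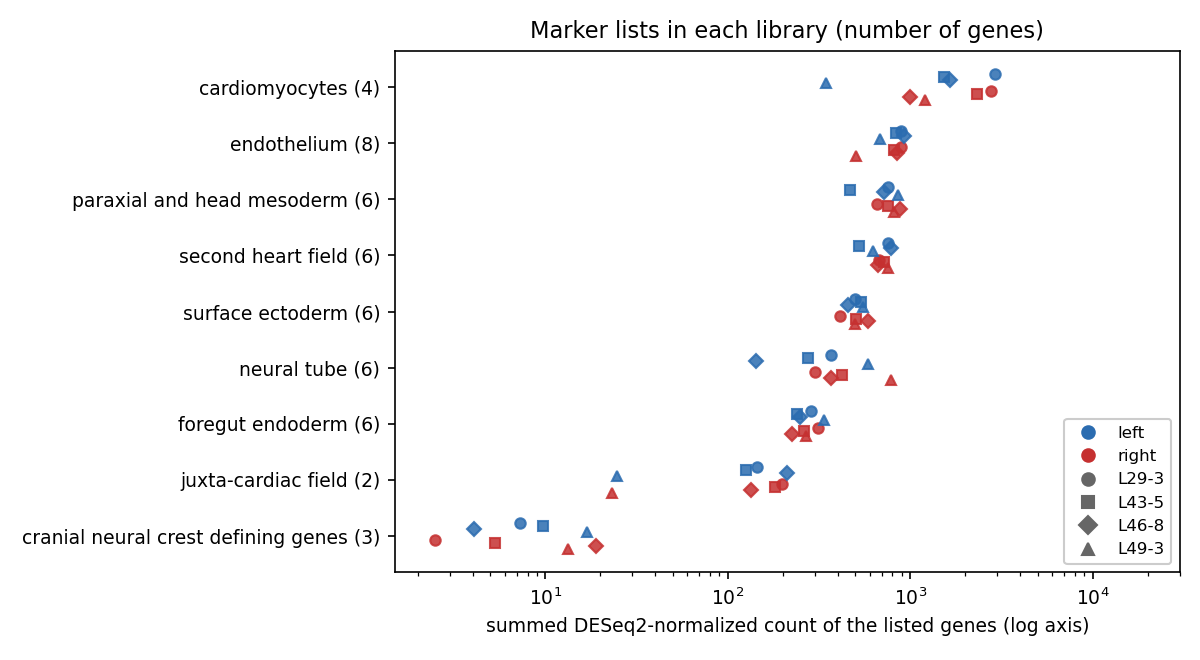
Summed DESeq2-normalized counts of the genes of each marker list (horizontal log axis, number of genes in brackets) in the 8 libraries, left in blue and right in red, with a symbol shape for each embryo. The 3 crest-defining genes sum to between 2.48 and 19.0, below the lowest library of every other list. The sums were not divided by the number or length of the genes. The nearest, 23.3 for the 2 juxta-cardiac field genes, is the right library of L49-3.

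Of the tested genes, *Twist1* (ENSMUSG00000035799, chromosome 12, 33957671 to 33959829, plus strand) had the highest level. It encodes a basic helix-loop-helix factor of mesenchyme that is needed for the survival and skeletal fate of cranial crest and is also expressed in head and lateral mesoderm. Embryo L29-3 had 208 normalized counts left and 196 right, L43-5 had 162 and 212, L46-8 had 308 and 181, and L49-3 had 280 and 158. The left was higher in 3 embryos and lower in L43-5, and the sides overlapped. With the embryo as a block, edgeR's quasi-likelihood test gave a log2 fold change, left against right, of 0.27 ± 0.168 (SE, n = 4 embryos), with a 95% interval of -0.09 to 0.64 and an adjusted p of 0.987. The left mean was 240 ± 66.8 (SD, n = 4) and the right mean 187 ± 23.1 (SD, n = 4). Its fold of 1.21 passed the fold limit of 1.2 in the study, whereas its unadjusted edgeR p of 0.129 missed the limit of 0.05. Without L43-5 it was 0.54 on the log2 scale, where the unadjusted edgeR p of 0.00267 and the fold pass both limits, while it was 0.10 without L46-8 and 0.13 without L49-3. *Twist2*, its paralogue, had 43 reads and a mean of 4.50 normalized counts, below 5.6.

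*Snai1* (ENSMUSG00000042821, chromosome 2, 167538195 to 167542814, plus strand) encodes a zinc finger repressor of E-cadherin that acts in epithelial to mesenchymal transition, in crest as in gastrulating mesoderm. It measured 68.1 and 50.8 on the left and right of L29-3, 58.7 and 71.5 of L43-5, 95.2 and 63.4 of L46-8, and 63.5 and 58.2 of L49-3. As with *Twist1*, the left was higher in every embryo but L43-5, and the sides overlapped. The log2 fold change by edgeR was 0.18 ± 0.172 (SE), with a 95% interval of -0.19 to 0.56 and an adjusted p of 0.987. Its paralogue *Snai3* had 7 reads in all.

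*Sox9* (ENSMUSG00000000567, chromosome 11, 112782224 to 112787760, plus strand) encodes an SRY-box factor of premigratory crest, neural progenitors and cartilage precursors. Embryo L29-3 had 109 normalized counts left and 73.0 right, L43-5 had 69.8 and 81.6, L46-8 had 60.2 and 88.8, and L49-3 had 127 and 73.1. The left side held both the highest and the lowest library, and its SD of 31.8 around a mean of 91.6 stood against 7.61 around 79.2 on the right. The log2 fold change by edgeR was 0.11 ± 0.200 (SE), with a 95% interval of -0.32 to 0.55 and an adjusted p of 0.987. Its sign turned to -0.04 without L29-3 and to -0.06 without L49-3. *Sox8*, which like *Sox9* and *Sox10* belongs to the SoxE group, had 23 reads and a mean of 2.45 normalized counts.

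*Ets1* (ENSMUSG00000032035, chromosome 9, 32636221 to 32757820, plus strand) encodes an ETS factor of delaminating cranial crest and of endothelium. Its normalized counts were 142 and 147 on the left and right of L29-3, 132 and 102 of L43-5, 87.9 and 140 of L46-8, and 115 and 94.7 of L49-3. The side with the higher value was the left in 2 embryos and the right in 2, and the means were close, 119 ± 23.6 for left and 121 ± 26.3 for right libraries (SD, n = 4). The log2 fold change by edgeR was -0.02 ± 0.158 (SE), with a 95% interval of -0.36 to 0.33 and an adjusted p of 0.997. Without L46-8 it was 0.19. The related gene *Ets2* had a mean of 132 normalized counts.

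Across all 9744 tested genes, 297 passed the threshold of the study, a fold of at least 1.2 with an unadjusted edgeR p of at most 0.05, which is 3.05%, with 1.63% higher and 1.42% lower on the left. Among the crest transcription factors 0 of the 4 tested genes passed it. An unadjusted p under 0.05 was reached by 4.36% of all tested genes and by 0 of the 4 with edgeR, DESeq2 or limma. After Benjamini-Hochberg adjustment, edgeR called 1 tested gene in all, or 0.0103%, and 0 of the 4. The median log2 fold change of the 4 genes was 0.15, with 3 above 0 and 1 below, and that of all tested genes was -0.004. With intervals that reach 0.64 for *Twist1* and 0.55 for *Sox9*, a difference of that size lies within the error of these data, and a count over 4 members can hardly be set against percentages this low.

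**Figure D3:**
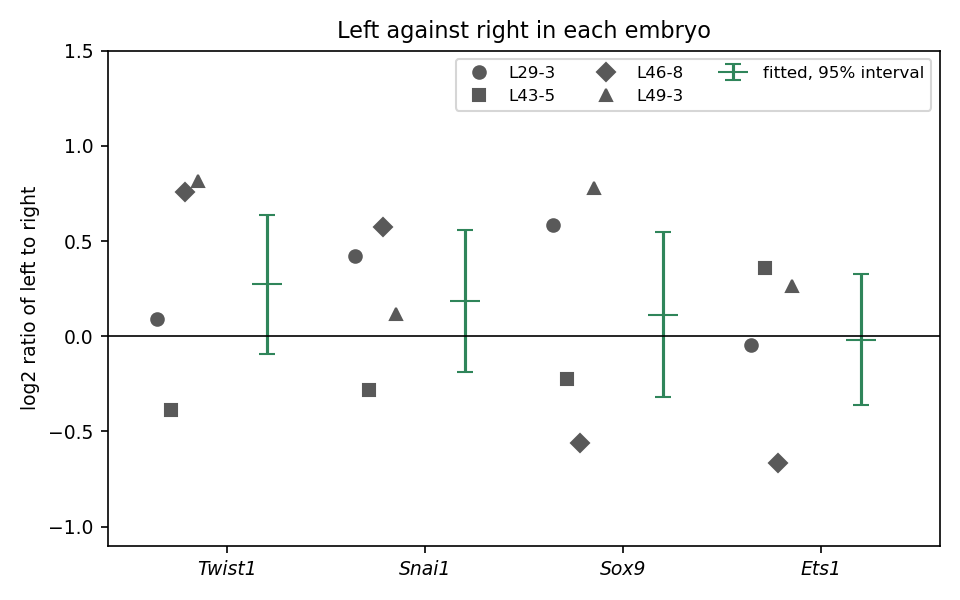
Left to right ratio (log2, vertical axis) for the 4 tested transcription factors in each embryo (grey symbols), with the log2 fold change fitted by edgeR and its 95% interval in green. The ratio has both signs for each gene and each green interval includes 0.

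The ratios of single embryos varied more for these genes than for most, and so did those of other neural crest genes. Over the 4 embryos, the left to right ratio had an SD on the log2 scale of 0.640 for *Sox9*, 0.573 for *Twist1*, 0.463 for *Ets1* and 0.377 for *Snai1*, against a median of 0.254 over all tested genes. Of all tested genes, 92.7%, 89.6%, 82.3% and 72.4% had a smaller SD than these genes, in that order. The median SD was 0.518 over the 4 genes and 0.513 over the 17 other neural crest genes tested, which are described below. The SD of a ratio also depends on the count of the gene, and its part here was not tested. The ratio kept a single sign in all 4 embryos in 12.4% of all tested genes and in 0 of the 4 crest factors.

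The embryos were then compared with the same edgeR fit, setting the differences among the 4 animals against the spread left between their sides. The smallest unadjusted p among the 4 genes was 0.235 for *Ets1*, with an adjusted edgeR p of 0.727, and the adjusted p of the other genes was 0.779 for *Snai1*, 0.801 for *Sox9* and 0.833 for *Twist1*. In this comparison 0.174% of all tested genes passed an adjusted p of 0.05 and 9.99% an unadjusted one. Differences among embryos were thus not detectable for these 4 genes by this test.

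The *Dlx* genes encode homeobox factors that are nested along the arches. *Dlx5* (ENSMUSG00000029755, minus strand, chromosome 6, 6877805 to 6882085) had 95 reads, and its normalized counts were 13.0 and 17.3 on the left and right of L29-3, 7.82 and 9.07 of L43-5, 5.70 and 16.5 of L46-8, and 18.6 and 6.65 of L49-3. It was the only one of the 6 untested genes above 5.6 in all 8 libraries. The right was higher in every embryo but L49-3, with an exact sign-flip permutation p of 0.75. *Dlx2* (ENSMUSG00000023391, chromosome 2, 71543408 to 71546754, minus strand) had 70 reads and measured 1.62 and 8.67, 8.48 and 5.87, 13.8 and 15.2, and 6.19 and 6.65 in the same order of embryos. It exceeded 5.6 in 7 libraries, the left of L29-3 being the exception, with an exact permutation p of 0.625.

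*Dlx6* (ENSMUSG00000029754, chromosome 6, 6863334 to 6868568, plus strand), which lies beside *Dlx5* in the opposite orientation, was much lower. It had 18 reads, values of 1.63 to 3.24 on the left and 1.07 to 3.32 on the right, and exceeded 5.6 in 0 libraries, with an exact sign-flip permutation p of 0.25. The antisense transcript *Dlx6os1*, which spans *Dlx6*, had 1 read, and the use of strand in counting is not given. Of the remaining genes of the family, *Dlx3*, known also from surface ectoderm, had a mean of 18.6 normalized counts. *Dlx1*, the neighbour of *Dlx2*, was at 1.68 and *Dlx4* at 0.732.

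Levels of different genes can be compared only per length, and were therefore divided by the kilobases of annotated exons. *Twist1* had the highest level, at 131 normalized counts per kilobase, followed by *Snai1* at 40.8, *Sox9* at 20.6, *Ets1* at 14.2, *Dlx5* at 5.23, *Dlx2* at 2.91, *Sox10* at 1.30, *Foxd3* at 0.977, *Dlx6* at 0.920 and *Tfap2b* at 0.562. The order of each of the neighbours down to *Dlx5* held in 8 of 8 libraries. The ranges of *Twist1* and *Snai1*, of *Snai1* and *Sox9* and of *Ets1* and *Dlx5* did not overlap, whereas those of *Sox9* and *Ets1* did. Below *Dlx5* all neighbouring ranges overlapped, and *Foxd3* exceeded *Dlx6* in 3 of 8 libraries. With the length of the longest transcript in place of all exons, *Ets1*, at 23.6 per kilobase, came before *Sox9*. *Snai1*, the lowest of the tested genes in normalized counts, stood next to *Twist1* per length.

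The promoters are shown for genes at both ends of this order that are listed in the RefSeq table of GRCm38.p6, which held 5 of the 10 genes. *Twist1* and *Snai1* were the highest per kilobase, and *Foxd3* and *Tfap2b* are crest-defining genes near 0. Each sequence is the 250 bases before the start that RefSeq lists, on the sense strand, and capitals mark the E-box CANNTG, the motif bound by basic helix-loop-helix and Snail factors, whose letters read the same class of site on both strands.
Twist1, chr12:33957421-33957670: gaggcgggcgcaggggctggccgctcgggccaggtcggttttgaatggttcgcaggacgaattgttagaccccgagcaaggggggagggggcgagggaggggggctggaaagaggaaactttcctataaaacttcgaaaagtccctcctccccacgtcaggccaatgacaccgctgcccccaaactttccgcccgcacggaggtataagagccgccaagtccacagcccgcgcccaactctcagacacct
Snai1, chr2:167537945-167538194: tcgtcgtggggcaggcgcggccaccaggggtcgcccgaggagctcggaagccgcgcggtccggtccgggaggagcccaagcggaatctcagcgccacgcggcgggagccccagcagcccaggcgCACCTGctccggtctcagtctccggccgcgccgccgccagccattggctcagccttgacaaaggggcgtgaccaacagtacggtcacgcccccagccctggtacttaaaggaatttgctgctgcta
Foxd3, chr4:99656049-99656298: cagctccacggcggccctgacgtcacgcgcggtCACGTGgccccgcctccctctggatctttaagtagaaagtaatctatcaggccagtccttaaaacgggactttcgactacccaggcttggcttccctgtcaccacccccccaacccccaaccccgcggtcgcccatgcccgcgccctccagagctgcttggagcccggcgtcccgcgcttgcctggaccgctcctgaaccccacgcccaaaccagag
Tfap2b, chr1:19211804-19212053: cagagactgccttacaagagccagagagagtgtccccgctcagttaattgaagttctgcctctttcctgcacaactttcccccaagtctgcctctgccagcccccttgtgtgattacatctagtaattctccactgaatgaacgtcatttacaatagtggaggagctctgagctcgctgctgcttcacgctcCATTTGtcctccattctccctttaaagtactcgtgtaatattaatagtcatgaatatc

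The *Tfap2b* window precedes a RefSeq start that lies inside the GENCODE gene, which begins further upstream at 19208914, whereas the other windows end 1 base before the GENCODE gene. The *Twist1* window held 0 E-boxes, and the *Snai1*, *Foxd3* and *Tfap2b* windows held 1 each. Of 32851 promoter windows of the same length, 66.2% held at least 1 E-box, which is the background for these matches. The GC content was 62.4% for *Twist1*, 70% for *Snai1*, 65.6% for *Foxd3* and 46.4% for *Tfap2b*, against a median of 52.4% over all windows.

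A list of 25 other neural crest genes was read beside the 10, covering the neural plate border, further transcription factors, receptors and adhesion molecules of migrating crest, ectomesenchyme and the other *Dlx* genes. Of these, 17 were tested and 1 passed the threshold of the study, against 3.05% of all tested genes, and 0 passed after adjustment. Without L46-8, 5 of 16 passed, against 3.96% of all genes tested in that fit, with *Snai2*, *Crabp1* and *Cdh11* higher and *Hand2* and *Msx2* lower on the left. The median log2 fold change of the 17 was -0.02, with 8 above 0 and 9 below.

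The gene that passed was *Snai2*, the paralogue of *Snai1* and a repressor of premigratory crest and other mesenchyme. It measured 45.4 and 34.7 on the left and right of L29-3, 75.6 and 62.4 of L43-5, 82.2 and 44.4 of L46-8, and 86.7 and 49.9 of L49-3. The left was higher in each of the 4 embryos, although the sides overlapped between embryos, and the means were 72.5 ± 18.6 for left and 47.8 ± 11.6 for right libraries (SD, n = 4). The log2 fold change by edgeR was 0.55 ± 0.165 (SE), an unadjusted p of 0.00574 that became 0.987 after adjustment, so that *Snai2* was past the threshold of the study but not past an adjusted p of 0.05. It was past the threshold of the study in all 12 fits run. *Snai1* itself did not pass, and the difference between the paralogues was not tested.

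Of the other listed genes, those with the highest means are given next. *Crabp1*, a retinoic acid binding protein gene of migrating crest and hindbrain, had a mean of 420 normalized counts and a log2 fold change of 0.27 with an adjusted edgeR p of 0.987. *Cdh11*, a cadherin gene of mesenchyme, had a mean of 347 and, at an unadjusted edgeR p of 0.0193, a log2 fold change of 0.24 whose fold of 1.18 missed the limit of 1.2. *Hand2*, a factor of lateral mesoderm, arches and outflow tract, had a mean of 134 and a log2 fold change of -0.18 with an adjusted edgeR p of 0.987. Among the AP-2 genes, *Tfap2a* was at 58.5 and *Tfap2c* at 13.6 against 3.56 for *Tfap2b*.

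**Figure D4:**
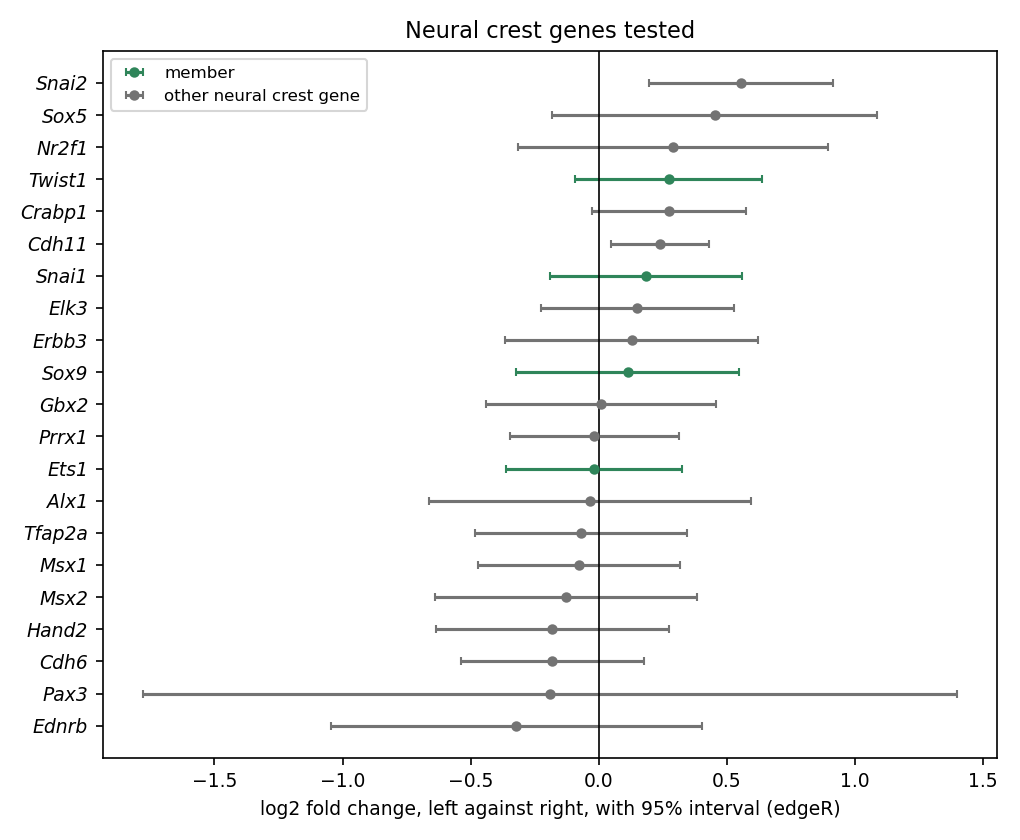
Log2 fold change of left against right by edgeR with its 95% interval (horizontal axis) for the 4 tested members (green) and the 17 other neural crest genes tested (grey). Besides *Snai2* at 0.55 and *Cdh11* at 0.24, every interval includes 0.

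Among embryos, 6 of the 17 genes had an unadjusted edgeR p under 0.05, against 9.99% of all tested genes, and 0 of 17 passed after adjustment, the smallest adjusted p being 0.136 for *Crabp1*. None of the 4 tested members was among those with a small unadjusted p.

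The side with reads of *Foxd3* was compared, after its values were seen, with the higher side of other crest genes. *Foxd3* had 1 read against 0 in L49-3 and 3 against 0 in L43-5. A count of 0 allows up to 3 reads, so its higher side is not established in these embryos. *Sox9* was higher on the left in L29-3 and L49-3 and on the right in L43-5 and L46-8, as the reads of *Foxd3* were. It was the only other member with this pattern in all 4 embryos. Of the 25 listed genes, *Pax3*, *Zic1* and *Tfap2a* had it, which is 12%. *Zic1* had only 4 against 1 reads in L49-3, so its higher side is not established there. Of the 9744 tested genes, 583 had it, or 5.98%. The sets are unlike, since the 25 include genes below the filter, *Zic1* among them. The pattern was taken from these same data, so the shares are a description and not a test. *Pax3*, *Zic1* and *Tfap2a* are 3 of the 7 genes listed for the neural plate border. The other border genes, *Msx1*, *Msx2*, *Gbx2* and *Pax7*, each departed from the pattern in at least 1 embryo.

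*Pax3* and *Zic1* encode factors of the neural plate border and dorsal neural tube, where crest arises. *Pax3* had 49 and 0 reads on the left and right of L29-3, 10 and 77 of L43-5, 23 and 55 of L46-8, and 48 and 12 of L49-3. In L29-3 the left was at least 10.7-fold higher after normalization, with the right at the limit of 3 reads, and in L49-3 it was 3.73-fold higher, whereas the right was 6.30-fold higher in L43-5 and 3.73-fold higher in L46-8. *Zic1* had 19 and 0, 2 and 30, 1 and 13, and 4 and 1 reads in the same order. The log2 fold change of *Pax3* by edgeR was -0.19 ± 0.728 (SE), the largest SE of the 21 crest genes tested. For *Foxd3* the pattern rests on 18 reads, and its higher side is not established in L43-5 and L49-3, nor is that of *Zic1* in L49-3.

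The summed neural tube level was higher on the left in L29-3, at 369 against 302, and on the right in the other embryos, at 425 against 276 in L43-5, 368 against 142 in L46-8 and 781 against 584 in L49-3. It thus moved with *Foxd3* and *Sox9* in 3 of 4 embryos and went the other way in L49-3. The paraxial and head mesoderm sum had the pattern of *Sox9* in all 4 embryos. Left was higher in L29-3, at 759 against 656, and in L49-3, at 861 against 816. Right was higher in L43-5, at 755 against 465, and in L46-8, at 874 against 719. No other marker list had this pattern in every embryo. The part of these tissues in the side of these genes was not tested.

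**Figure D5:**
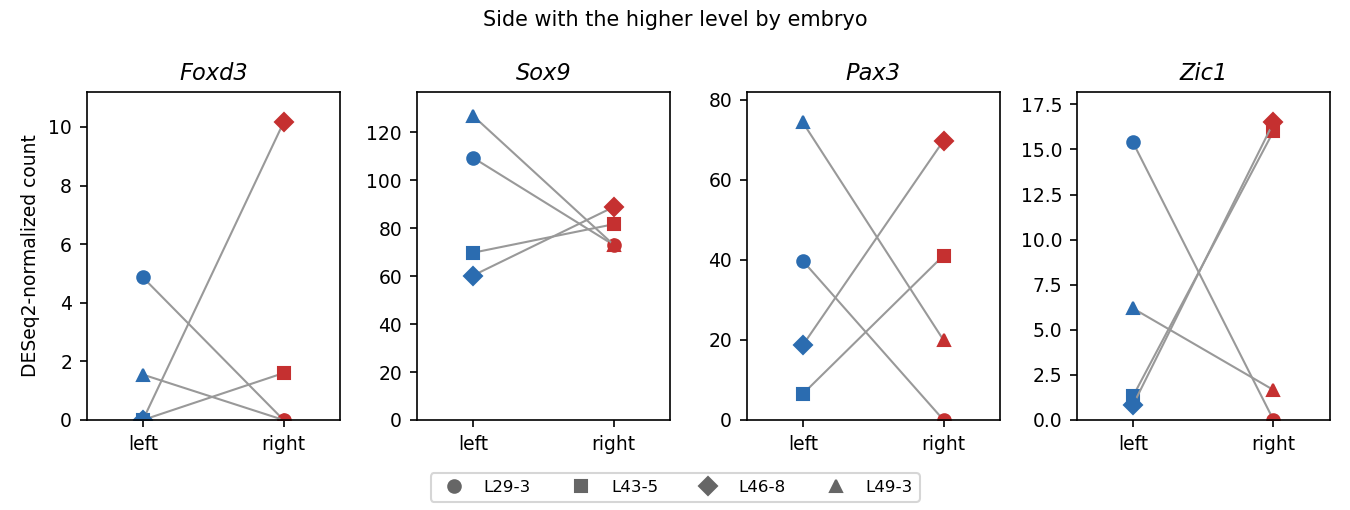
DESeq2-normalized counts (vertical axes, each from 0) of *Foxd3*, *Sox9*, *Pax3* and *Zic1* on the left (blue) and right (red), with a line and a symbol shape for each embryo. In all 4 panels the lines of L29-3 and L49-3 fall from left to right and those of L43-5 and L46-8 rise. The genes were drawn because they had this pattern, so the agreement of the panels was fixed by the choice. The border genes that departed from it, *Msx1*, *Msx2*, *Gbx2* and *Pax7*, are not drawn. *Foxd3* had 1 read against 0 in L49-3 and 3 against 0 in L43-5, and *Zic1* had 4 against 1 in L49-3.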

How the data were processed

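Bulk poly-A RNA of 4 left and 4 right heart fields was sequenced with an oriented kit. The authors aligned paired reads to GRCm38 with HISAT2, excluded duplicates and counted genes with featureCounts; their versions, and whether counting used the strand, are not given in the sources used here. The deposited values are raw counts, not normalized. Positions, symbols (48058 of 48526 genes) and exon lengths are from GENCODE vM21.

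The members and all gene lists were chosen with earlier results of these data known. The sides were tested in R 4.3.3 with edgeR 4.0.16 (TMM, quasi-likelihood test, embryo as a block), on 9744 genes with at least 20 DESeq2-normalized counts in at least 4 libraries, as in the study, and p-values were adjusted by Benjamini-Hochberg over these genes. Ratios of single embryos use TMM CPM with a pseudocount of 0.5. Genes below the filter were compared by an exact two-sided sign-flip permutation test. The named genes were all members, their paralogues and the highest marker of each cell type. Listed crest genes were named if past the threshold of the study or, where fewer than 3 passed, if among the 3 of highest mean. *Pax3*, *Zic1*, *Msx1*, *Msx2*, *Gbx2*, *Pax7*, *Foxd1*, *Mab21l2*, *Trp63* and *Nkx2-1* were named after their values were seen. So were *Erbb3*, *Ednrb*, *Ngfr*, *Barx1*, *Rfx4*, *Epcam*, *Grhl2* and *Grhl3*. Transcripts were compared with blastn 2.17.0 (at least 90% identity over at least 100 bases).

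Left and right are paired because both come from the same embryo. The correlations of their deviations from the side means were 0.167, 0.187, -0.02 and 0.431 in L29-3, L43-5, L46-8 and L49-3. Of the 4 left libraries, 2 correlated best with the right library of their own embryo. No libraries were duplicates of one another, since chi-square per degree of freedom was at least 1.93 for every pair. Alternatives were DESeq2 1.42.0, limma 3.58.1, other scaling, other filters, no block and each embryo left out.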

Additional observations from a re-analysis of the deposited data

Results flagged for a closer look

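Among the 24 groups of 4 libraries examined (the left and the right side of each of the 10 genes, and the left to right ratio of the 4 tested genes), 3 held a library further from the others than Dixon's 95% limit allows, and chance gives about 1 in 20. The right library of L46-8 had 10.2 normalized counts of *Foxd3*, from 8 reads, against 0 to 1.60 in the other right libraries. The left library of L43-5 had 5.87 normalized counts of *Tfap2b*, from 9 reads, against 0.811 to 1.63 in the other left libraries. The right library of L49-3 had 3.32 normalized counts of *Dlx6*, from 2 reads, against 1.07 to 1.27 in the other right libraries. The right library of L43-5 also had 2 reads of *Dlx6*, at 1.07 normalized counts. Dixon's limit and the share of about 1 in 20 are those for normally distributed values, not for counts this low.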

How the results depend on the processing

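Of the members, 1 rather than 0, *Twist1*, passed the threshold of the study with no filter on low counts, where all 10 were tested (0.29 log2, edgeR p 0.00625), and without L43-5 (0.54), the members called ranging from 0 to 1 when each embryo was left out. Of the other crest genes, 3 of 25 passed with no filter (2.88% of all genes tested in that fit) and 2 of 17 with limma-voom (3.09%) in place of 1 of 17, and 1 to 5 when each embryo was left out: 2 of 18 without L29-3 (3.61%), 2 of 15 without L43-5 (3.52%), 5 of 16 without L46-8 (3.96%) and 1 of 17 without L49-3 (2.86%). *Sox9* turned to -0.043 without L29-3 and -0.064 without L49-3, and *Ets1* to 0.0096 with limma-voom and 0.19 without L46-8, ranging down to -0.18 when each embryo was left out. The longest transcript moved 4 members in the order per kilobase, and leaving out an embryo moved 0 to 2. The cause of these changes was not tested. *Snai1* kept its direction and its side of the threshold in all 11 alternatives.

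Without the replicate block, 0 members and 1 other crest gene passed, and *Twist1* was at 0.32. Over all genes 233 passed without the block and 297 with it, 59 with DESeq2, 301 with limma-voom and 687 with no filter. On TMM CPM, 5 rather than 6 member means exceeded 5.6. With 18 to 30 reads over 8 libraries for *Foxd3*, *Dlx6*, *Tfap2b* and *Sox10*, only large differences between sides could have been detected, and 4 embryos do not allow an exact p under 1 in 8.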
